A study of Rattus norvegicus with 4 samples.

Results

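The subject is the rat genes that encode the actin, myosin and tubulin cytoskeleton and its motors, followed in NRK-52E cells after hydrogen peroxide (H2O2). Members were taken by gene symbol: conventional actins, alpha-actinins and actin-related proteins, subunits of the Arp2/3 complex, capping protein, cofilin, tropomyosins, myosin heavy and light chains, unconventional myosins, tubulins, kinesins, dyneins and vimentin. A probe was found for 77 such genes, of 8963 named genes on the array, and 67 of them were well above background on at least 1 of the 4 arrays, of 6028 named genes that were. The other 10, Actrt1, Capza3, Kif27, Kif5a, Myh4, Myl1, Myl2, Myl3, Myo16 and Myo5b, were not well above background on any array. Actg1, Acta2, Flna and Tuba1a were not analysed here.

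NRK-52E is a cloned epithelial line from a normal rat kidney, used as a model of the renal tubule. Confluent cultures were given medium with 0% (the control), 0.003%, 0.006% or 0.009% H2O2 for 1 h, then washed and left in medium without serum for 12 h, so the control cells were starved of serum too. The series asks what dying cells release that makes their neighbours divide. Total RNA of each dose was labelled with Cy3 and hybridised to 1 Agilent array, so there are no replicates, no test across samples and no p-value, and precision is limited by having a single array at each dose.

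Cells carry actin filaments, microtubules and intermediate filaments. Actin filaments are nucleated by the Arp2/3 complex, capped, severed by cofilin, bundled by alpha-actinin, wrapped by tropomyosin and pulled by myosins. Microtubules are polymers of alpha- and beta-tubulin on which kinesins and dyneins carry cargo. In tubule cells actin filaments hold up the brush border, the junctions and the attachment to the basement membrane.

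Each array held 43379 noncontrol spots, none of them saturated, and the share of probes well above background lay between 51.8 and 54.9%. Over all of these spots the 75th percentile of signal was 180, 168, 158 and 121 from the control to 0.009%. A level below is a signal divided by this percentile of its own array, a difference is the log2 ratio of a dose to the control, and levels of different genes are not comparable because each has its own probe. The error given with ± is the scanner software's spot error. It was between 0.20 and 0.42 for the members, with a median of 0.20, and does not include the spread between cultures. Where a gene was not well above background on 1 of the arrays compared, its difference is a bound, written as "at least". Array position on the single slide followed the dose, and the effects of position and dose cannot be told apart. Of 8 tubular epithelial markers with a probe, 7 were well above background on at least 1 array, with a median difference of -0.09, 0.53 and 0.36. They did not move together. The simple-epithelium keratin Krt8 had levels of 59.3, 55.8, 43.6 and 36.9 from the control to 0.009%, and the water channel Aqp1 and the kidney cadherin Cdh16 were also below the control at each dose. The keratin Krt18 was 4.65-, 6.76- and 8.55-fold higher, Krt19 had levels of 0.369, 0.309, 0.741 and 1.15, and the tight junction claudin Cldn4 was at least 2.39-, 1.84- and 1.81-fold higher. The Krt18 control level, 0.0646, was close to the lowest level well above background on that array, 0.0568, which limits its folds. The adherens junction cadherin Cdh1 was well above background on 2 arrays and Epcam on none. In whole cultures fewer cells and less RNA per cell cannot be told apart.

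Most of the cytoskeleton lay within 2-fold of the control at every dose. Of 66 members compared, 5 were at least 2-fold higher at 0.003%, 7 at 0.006% and 7 at 0.009%, which is 7.58, 10.6 and 10.6%, against 16.1, 14.8 and 13.8% of all named genes compared. At least 2-fold lower were 7, 6 and 4 members, which is 10.6, 9.09 and 6.06%, against 12.0, 8.03 and 5.14% of all named genes. In all, 53, 50 and 54 members were within 2-fold, and 1, 3 and 1 had no bound above 1-fold. The members' share in either direction, 18.2, 19.7 and 16.7%, stood against 28.1, 22.8 and 18.9% for all named genes. At 0.003% the members' share was the smaller under all 8 alternative ways of processing, and at 0.009% it was the larger under quantile normalization (21.2 against 16.2%), under normexp background correction (10.6 against 7.80%), in the authors' value table or after array median scaling (30.3 against 27.0%) and with scaling to spike-in controls (65.2 against 59.1%). The median of the members' log2 differences was -0.05, -0.07 and 0.05, against 0.02, -0.03 and 0.06 for all named genes. The median size of a difference, whatever its sign, was 0.48, 0.40 and 0.33 in the members and 0.61, 0.56 and 0.48 in all named genes.

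**Figure D1:**
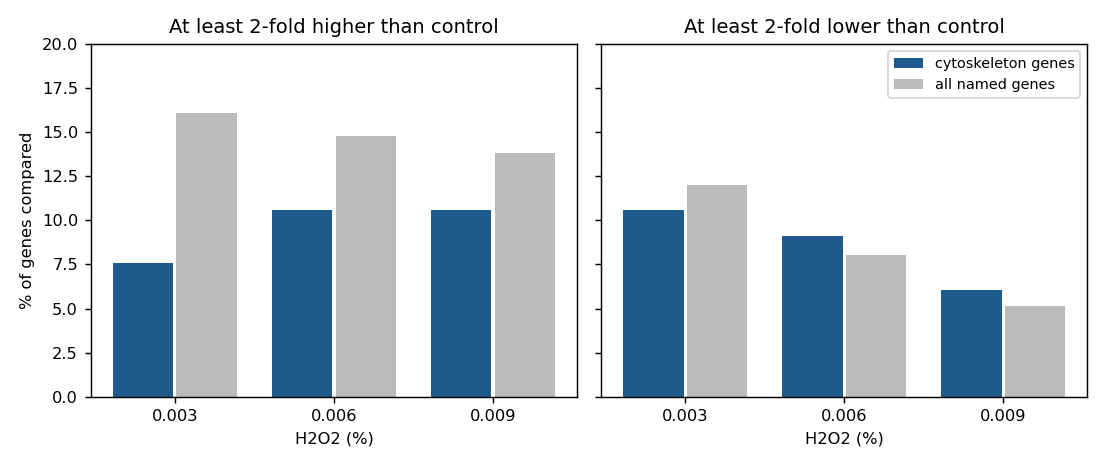
Percent of cytoskeleton genes (dark bars) and of all named genes (grey bars) at least 2-fold higher (left) or lower (right) than the control, by H2O2 dose in percent, from 1 array per dose. The cytoskeleton bars for higher genes are 7.58, 10.6 and 10.6%, each below the grey bar, and those for lower genes are 10.6, 9.09 and 6.06%, close to the grey bars.

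All differences depend on the scaling. Scaling to the array median instead of the 75th percentile moves every difference by -0.15, -0.31 and -0.56 at the 3 doses, and scaling to the spike-in controls by -0.19, -0.56 and -1.19, so a positive difference smaller than these sizes is negative under that scaling. The authors' value table is close to array median scaling.

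The tubulins, the subunits of microtubules, lay mostly above the control. Of 9 with a difference at 0.003% and at 0.006%, 8 were above the control at each, and of 10 at 0.009%, 9 were, with median differences of 0.63, 0.58 and 0.53. The medians of all named genes were 0.02, -0.03 and 0.06, and their share above the control is not given here. Among the tubulins above, Tubb3 at all 3 doses and Tuba8 at 0.009% were bounds over a control not well above background. Such a bound can only count as above. With spike-in scaling the counts above the control were 7 of 9, 6 of 9 and 3 of 10, and the median at 0.009% turned to -0.66, while array median scaling put it at -0.03 with 5 of 10 above. The tubulins past 2-fold on the higher side numbered 3, 4 and 4, beside 16.1, 14.8 and 13.8% of all named genes. The count was 2 at 0.006% with spike-in scaling, and 2 at 0.009% with spike-in scaling, normexp or either stricter background filter. None was 2-fold lower, apart from 1 at 0.006% and 1 at 0.009% with spike-in scaling.

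Tuba4a, an alpha-tubulin abundant in neurons, muscle and platelets, had levels of 1.29, 4.68, 8.59 and 10.6 from the control to 0.009%. Each dose was above the one before it, but with spike-in scaling the difference at 0.009% (1.85) was below that at 0.006% (2.17). The differences were 1.86 ± 0.20, 2.73 ± 0.20 and 3.04 ± 0.20, that is 3.62-, 6.63- and 8.22-fold higher. Over the 8 alternative ways of processing they lay between 1.54 and 1.86, between 2.17 and 2.75 and between 1.85 and 3.07. Tuba4a was thus at least 2-fold higher at all 3 doses in each of them. The 2 stricter filters and the mean over probes could not change its values, because it had 1 probe, above background on every array. The authors' table gave the same differences for it as array median scaling.

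Tubb3, the beta-tubulin isotype of neurons, was not well above background in the control at a level of 0.0545 and had levels of 0.421, 0.613 and 0.643 over the 3 doses. It was at least 7.41-, 10.8- and 11.3-fold higher. With normexp background correction, which pulls dim signals together, the differences were 0.94, 1.33 and 1.41. Tubb6, a beta-tubulin of many tissues, had levels of 11.5 in the control and 26.3, 29.0 and 25.5 over the doses, so the 3 treated cultures lay close together. It was 2.28-, 2.51- and 2.21-fold higher (1.19, 1.33 and 1.15), and a less bright probe gave 1.07, 1.20 and 0.88. With spike-in scaling Tubb6 was at -0.04 at 0.009%. Tuba8, an alpha-tubulin of testis, muscle and brain, was by its brightest probe well above background only at 0.009%, with levels of 0.0527, 0.0547, 0.0872 and 0.170, and was at least 2.99-fold higher there. Its other probe was above background at 0.006% too, with bounds of 0.74 there and 1.74 at 0.009%.

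The other tubulins lay nearer to the control. Tuba1c, a widely expressed alpha-tubulin, had levels of 56.9, 106, 118 and 91.3, with differences of 0.90, 1.05 and 0.68. Its other probe gave 0.45, 0.50 and 0.13, so its 2-fold difference at 0.006% rests on the probe taken. Tubb4b, a widely expressed beta-tubulin, had levels of 160, 247, 238 and 194, and Tubb2b, prominent in the developing brain, 85.5, 128, 127 and 111. Both had their highest level at 0.003%. Tubb5, a widely expressed beta-tubulin, had differences of 0.28, 0.23 and 0.28, of which the last 2 turned negative under array median, spike-in and quantile scaling. Tuba3a, an alpha-tubulin of testis, was at 0.05, 0.33 and 0.33. Tubg1, the gamma-tubulin that nucleates microtubules at the centrosome, was the exception among the tubulins, at -0.34, -0.54 and -0.01. Probes against tubulins and actins may capture RNA of close relatives, since their coding sequences are very alike, and the probe sequences were not analysed here.

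The promoters of the 3 tubulins with the largest differences at 0.003% are shown because these genes were higher together. Each is the 250 bases before the gene's start in RefSeq, assembly GRCr8, read 5′ to 3′ on the gene's strand: Tuba4a at chr9:84162585-84162834 on the minus strand, Tubb3 at chr19:68365437-68365686 on the plus strand and Tubb6 at chr18:63213037-63213286 on the plus strand. Capitals mark GC boxes (GGGCGG, or CCGCCC on the other strand) and CCAAT boxes (CCAAT, or ATTGG on the other strand).
Tuba4a: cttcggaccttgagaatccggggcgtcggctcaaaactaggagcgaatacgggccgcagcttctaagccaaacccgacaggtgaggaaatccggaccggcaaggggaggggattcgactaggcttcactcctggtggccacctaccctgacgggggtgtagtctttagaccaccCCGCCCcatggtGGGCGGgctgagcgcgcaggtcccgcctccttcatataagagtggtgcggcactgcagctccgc
Tubb3: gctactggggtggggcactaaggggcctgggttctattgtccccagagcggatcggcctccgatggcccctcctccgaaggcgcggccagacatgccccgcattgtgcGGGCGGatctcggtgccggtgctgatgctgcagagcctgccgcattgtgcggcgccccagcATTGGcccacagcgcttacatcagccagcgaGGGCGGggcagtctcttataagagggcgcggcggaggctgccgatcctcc
Tubb6: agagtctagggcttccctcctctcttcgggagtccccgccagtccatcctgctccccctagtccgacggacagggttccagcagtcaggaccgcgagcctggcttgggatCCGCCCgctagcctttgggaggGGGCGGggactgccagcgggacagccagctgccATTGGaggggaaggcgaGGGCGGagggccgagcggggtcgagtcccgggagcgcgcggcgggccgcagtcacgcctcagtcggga
The Tuba4a stretch held 2 GC boxes and no CCAAT box, that of Tubb3 2 and 1, and that of Tubb6 3 and 1. Of 67 members, 57 matched a RefSeq promoter, and windows of 300 bases (250 before the start and 50 after) were searched on both strands. A GC box was in 41 of the 57 members (71.9%), against 58.7% of 4925 named genes well above background and 33.1% of all 33469 promoters. CCAAT was in 27 members (47.4%), against 39.1% and 37.5%. The AP-1 site TGANTCA was in 1 member, Actg2 (1.75%), against 5.91% and 7.33%, and the heat shock element in none, against 0.609% and 0.798%. A match is a string of letters and not a bound site. The 250 bases before the start had a median G and C content of 64.0% in the members and 59.2% in the named genes above background.

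**Figure D2:**
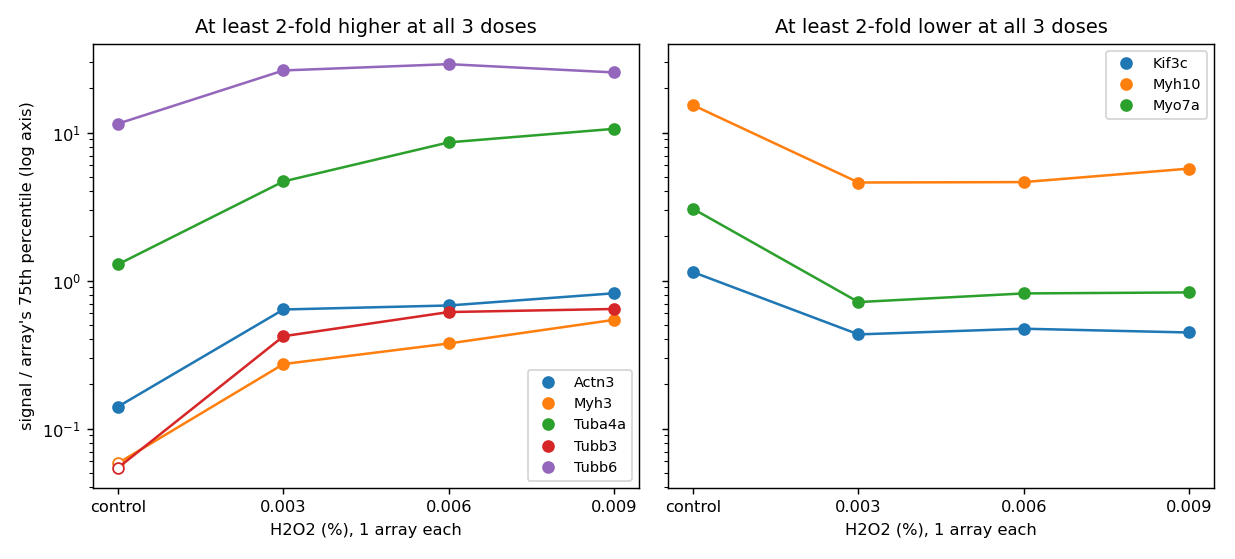
Level of each gene at least 2-fold higher (left) or lower (right) than the control at all 3 doses, as signal over the array's 75th percentile on a log axis, by H2O2 dose in percent, 1 array each; open points were not well above background. Tuba4a is at 1.29, 4.68, 8.59 and 10.6 over the doses, while Myh10, Myo7a and Kif3c are at about the same level at all 3 treated doses.

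The conventional actins stayed near the control. Actb, cytoplasmic beta-actin, had levels of 226, 214, 246 and 273. A second Actb probe printed in 10 spots had levels of 160, 146, 170 and 192, with a standard deviation over its spots of 0.04, 0.03, 0.04 and 0.04 on the log2 scale. Both probes were lowest at 0.003% and highest at 0.009%. From 0.003% to 0.009% Actb differed by 0.35, which turned to -0.06 when scaled to the array median and to -0.64 when scaled to the spike-ins. Actg2, the enteric smooth muscle actin, was at -0.30, -0.05 and 0.07, and Acta1, the skeletal muscle actin, at -0.02, 0.15 and 0.37. The positive values of both were negative under array median and spike-in scaling. At 0.009% spike-in scaling put Actb at -0.91, Actg2 at -1.12 and Acta1 at -0.82.

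Acta1 is a textbook target of serum response factor, which binds the CArG box. Of the 57 members with a promoter 2 held a CArG box (3.51%), Acta1 and the long-tailed class I myosin Myo1e, against 1.18% of named genes above background and 1.64% of all promoters. The 250 bases before the Acta1 start (chr19:68784195-68784444, minus strand, GRCr8) are shown because this is the only conventional actin with the box in that window among those matched. The only other conventional actin matched was Actg2. Actb matched no promoter and was not searched. Capitals mark, in order, a GC box, the CArG box, a second GC box and the TATAAA letters.
Acta1: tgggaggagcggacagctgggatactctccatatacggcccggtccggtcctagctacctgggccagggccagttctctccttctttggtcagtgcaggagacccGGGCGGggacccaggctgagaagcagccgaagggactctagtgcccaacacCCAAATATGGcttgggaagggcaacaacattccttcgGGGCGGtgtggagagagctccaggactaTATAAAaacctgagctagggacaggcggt
TATAAA itself was in 4 members (7.02%), Tubb4b, Myh3, Vim and Acta1, against 6.38% of named genes above background and 8.80% of all promoters.

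Actin nucleation, capping and severing showed small differences. Of the 8 actin-related and Arp2/3 genes none was 2-fold from the control at any dose by its brightest probe, though 5 were at least 2-fold lower at 0.009% with spike-in scaling. Arpc1b, a subunit of the Arp2/3 complex, had levels of 44.9, 25.6, 33.1 and 41.1, a difference of -0.81 at 0.003%. Its paralog Arpc1a was at 0.32, 0.16 and -0.17 and Arpc5, another subunit, at 0.40, 0.45 and 0.43. A dimmer Arpc5 probe, above background on all 4 arrays, gave 1.22, 0.78 and 0.44, which is past 2-fold at 0.003%. Actr3, the Arp3 subunit, had levels of 7.32, 11.6, 9.89 and 8.37, the highest at 0.003%, and Actr2, the Arp2 subunit, 36.7, 40.4, 33.6 and 26.4, the lowest at 0.009%. Subunits of 1 complex therefore did not share a pattern over dose. Arpc1b was lowest at 0.003% while Actr3 was highest there. Arpc5l, a relative of Arpc5, and Actr10, a dynactin subunit, lay between -0.02 and 0.32 at all doses by their brightest probes. Actrt2, an actin-related protein of testis, was well above background only in the control and at 0.009%, with levels of 0.0795 and 0.0985. The capping protein subunits Capza2 and Capzb and the filament-severing Cfl1 had differences between -0.04 and 0.29 at all doses by their brightest probes, and a second Capza2 probe gave 0.95, 0.62 and 0.18. Under spike-in scaling the brightest probes of Capza2, Capzb and Cfl1 were negative at 0.006% and 0.009%.

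Among the alpha-actinins, which crosslink actin filaments, the muscle form Actn3 was higher and the nonmuscle form Actn4 lower at each dose, while the nonmuscle Actn1 was near the control. Actn3, the form of fast skeletal muscle fibres, had levels of 0.141, 0.638, 0.679 and 0.821. It was 4.51-, 4.80- and 5.80-fold higher, with differences of 2.17 ± 0.26, 2.26 ± 0.26 and 2.54 ± 0.26, and 0.95, 0.97 and 1.23 with normexp. Actn4, the nonmuscle form found in podocytes and tubule cells, had levels of 19.1, 12.1, 11.4 and 12.1, with differences of -0.66, -0.75 and -0.66. Actn1, the other nonmuscle form, was at 0.23, 0.04 and 0.05, of which the last 2 were negative with array median, spike-in and normexp processing.

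The heavy chains of nonmuscle myosin II, the motor of contraction in cells other than muscle, were lower at each dose of H2O2 than in the control. Myh10, the IIB heavy chain, had levels of 15.3, 4.60, 4.63 and 5.71. All 3 treated cultures lay well below the control and close to each other. It was 3.32-, 3.31- and 2.68-fold lower (-1.73, -1.72 and -1.42, each ± 0.20). A second probe for Myh10 was well above background only in the control and gave bounds of -0.64, -0.61 and -0.34. Myh9, the IIA heavy chain, had levels of 2.59, 1.64, 1.31 and 1.37, with differences of -0.66, -0.98 and -0.91. Myl12b, a regulatory light chain of nonmuscle myosin, was at -0.05, 0.24 and 0.34, and negative at all 3 doses after scaling to the array median or the spike-ins.

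The skeletal muscle myosins Myh3 and Myl11 were higher at each dose, while the cardiac heavy chains were lower at 0.003% and 0.006%. Myh3, the embryonic skeletal heavy chain, was not well above background in the control (0.0585) and had levels of 0.273, 0.376 and 0.543. It was at least 4.67-, 6.42- and 9.27-fold higher, with 0.65, 0.90 and 1.26 under normexp. A dimmer probe for Myh3 gave bounds of 0.81, 1.35 and 1.46. Myl11, a fast skeletal regulatory light chain, had levels of 0.349, 0.658, 0.806 and 0.971, each dose above the one before it, and differences of 0.91 ± 0.21, 1.21 ± 0.21 and 1.47 ± 0.21. It was under 2-fold at each dose with array median scaling (0.77, 0.89 and 0.91) and normexp (0.53, 0.78 and 0.96). With spike-in scaling Myl11 was at 0.72, 0.65 and 0.29, so the stepwise rise depends on the scaling. Myh6 and Myh7, the alpha and beta cardiac heavy chains, are near-identical and their signals may not be separate. Myh6 had levels of 3.56, 2.13, 3.01 and 3.83 and Myh7 1.42, 0.900, 1.21 and 1.57. Both were lowest at 0.003%, with differences of -0.74, -0.24 and 0.10 for Myh6 and of -0.66, -0.24 and 0.15 for Myh7.

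Other striated muscle genes were read beside Myh3, Myl11 and Actn3. Of 7 such markers 5 were well above background on at least 1 array. Of the 5, 1, 1 and 2 were 2-fold or more above the control, none was lower, and their median difference was 0.01, 0.65 and 0.46. Among all named genes 16.1, 14.8 and 13.8% were at least 2-fold higher and 12.0, 8.03 and 5.14% lower. Creatine kinase Ckm was at least 5.09-, 8.47- and 10.2-fold higher, from a control not above background, and the cardiac troponin Tnni3 was at 0.01, 0.65 and 1.06. The cardiac troponin Tnnt2 was at -0.39, 0.02 and 0.46, the cardiac actin Actc1 at 0.32, 0.65 and 0.19, and Acta1 is given above. The myogenic factors Myog and Myod1 were not well above background on any array. The part of these marker genes in the result was not tested.

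The unconventional myosins, which move vesicles and link actin to membranes, lay mostly below the control. Of those with a difference, 6 of 7 were below at 0.003%, 6 of 6 at 0.006% and 6 of 7 at 0.009%, with medians of -0.48, -0.84 and -0.74. The medians of all named genes were 0.02, -0.03 and 0.06, and their share below the control is not given here. Among the myosins below at 0.003%, Myo9a was a bound from a gene above background only in the control, which can only count as below. With normexp the myosins' medians were -0.42, -0.32 and -0.13, with 4 of 6, 6 of 7 and 4 of 7 below.

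Myo7a, the myosin of stereocilia and of microvilli-like structures, had levels of 3.05, 0.716, 0.819 and 0.832. The treated cultures were close together and far from the control. It was 4.26-, 3.72- and 3.67-fold lower (-2.09, -1.90 and -1.87, each ± 0.21), the lowest difference of any member at each dose. Over the alternatives the differences lay between -2.28 and -1.67, between -2.45 and -1.52 and between -3.06 and -1.44. Myo5a, which carries vesicles along actin, had levels of 4.33, 2.40, 1.95 and 2.14, with differences of -0.85, -1.15 and -1.02. Myo1c, a membrane-linked class I myosin, had levels of 0.635, 0.291, 0.311 and 0.379, at -1.12, -1.03 and -0.74. Myo9b, a class IX myosin, was at -0.48, -0.65 and -0.52. Myo9a, a relative of Myo9b, was well above background only in the control, at a level of 0.0780.

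Myo1d, a class I myosin known for left-right asymmetry in flies, had another pattern, with levels of 0.194, 0.298, 0.181 and 0.0982. It was highest at 0.003% and lowest at 0.009%, a difference of -1.60 ± 0.34 between these doses. These are dim signals, and with normexp the same difference was -0.18 and that of 0.009% to control was 0.14. Myo1e, a class I myosin of podocytes, was by its brightest probe well above background on 2 arrays, with levels of 0.0587 in the control and 0.104 at 0.009%, and a dimmer probe measured on the control and 0.003% arrays gave 0.39.

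**Figure D3:**
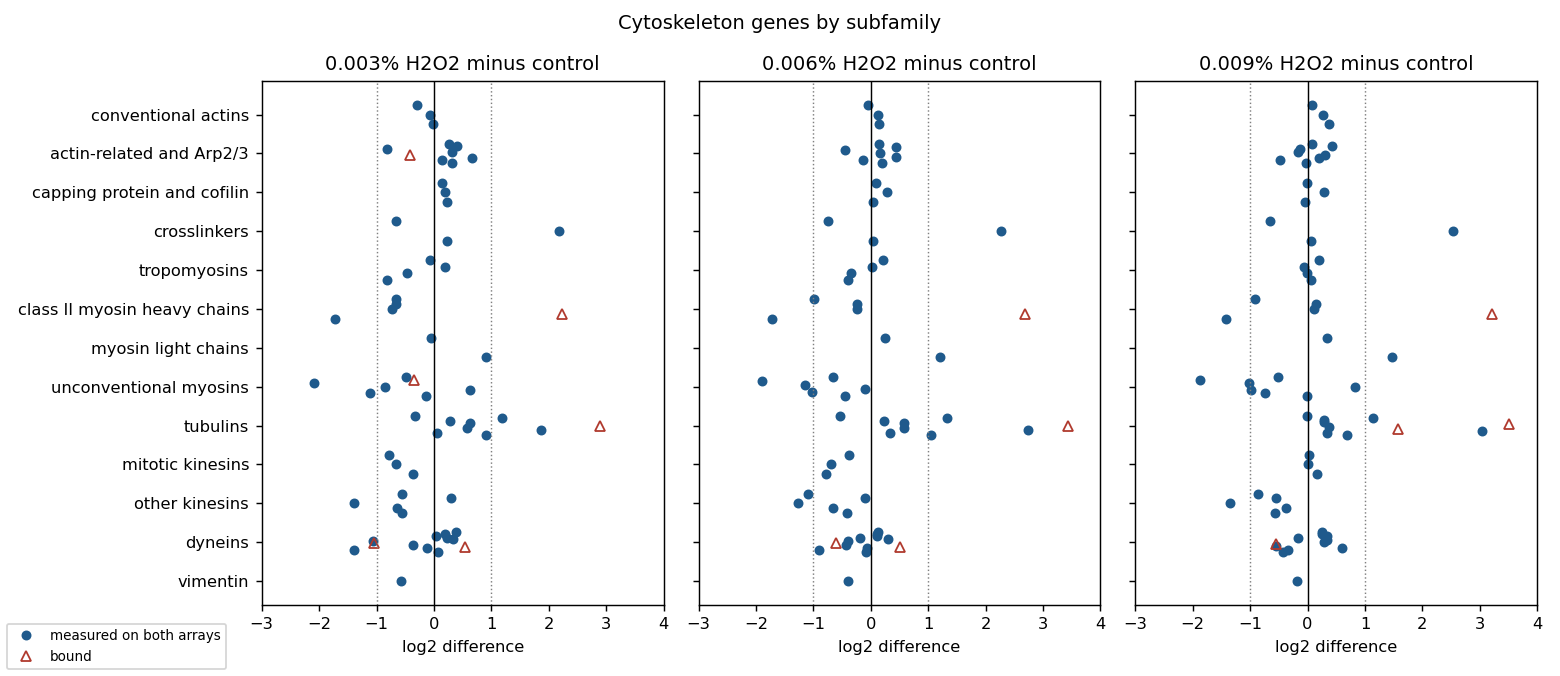
Log2 difference from the control of every cytoskeleton gene with a difference, in rows by subfamily, at 0.003, 0.006 and 0.009% H2O2 (left to right), 1 point per gene; triangles are bounds and dotted lines mark 2-fold. Tubulins lie mostly right of 0 and unconventional myosins mostly left of it (with spike-in scaling 3 of 10 tubulins lie right of 0 at 0.009%), while actins, Arp2/3 and capping proteins stay between the dotted lines.

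Kinesins, motors that mostly walk to the plus end of microtubules, were lower or near the control. Kif3c, a heavy chain of a heterodimeric kinesin-2, had levels of 1.14, 0.433, 0.473 and 0.446. It was 2.64-, 2.42- and 2.56-fold lower (-1.40, -1.27 and -1.36), and at -0.96, -0.84 and -0.88 with normexp. Kif7, a ciliary kinesin of hedgehog signalling, had levels of 0.464, 0.313, 0.219 and 0.256, with differences of -0.57, -1.09 and -0.86. The 2-fold difference at 0.006% was -0.55 with normexp, and at 0.009% Kif7 was past 2-fold with array median (-1.42), spike-in (-2.05) and quantile (-1.05) scaling. Kif1c, which carries vesicles, was at -0.65, -0.67 and -0.38, and Kif1b, its relative in mitochondrial and synaptic vesicle transport, at -0.56, -0.41 and -0.57 (0.10 at 0.009% with normexp). A second Kif1b probe with a similar signal gave 0.15, -0.27 and 0.34, so its sign at 0.003% and 0.009% rests on the probe taken. Kif5b, the ubiquitous conventional kinesin, had levels of 66.8, 81.7, 61.9 and 45.8, but its 3 probes disagreed: at 0.003% they gave 0.29, 1.31 and 0.70 and at 0.009% -0.54, 0.38 and 0.62.

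The 3 kinesins of mitosis had levels at 0.009% close to those of the control and were lower at 0.003% and 0.006%. Kif22, which pushes chromosomes outward on the spindle, had levels of 10.5, 6.63, 6.45 and 10.5. Kif2c, a microtubule depolymerase at centromeres, had 0.818, 0.472, 0.629 and 0.830, and Kif15, a spindle motor, 0.620, 0.481, 0.360 and 0.694. Their differences from the control lay between -0.79 and -0.37 at 0.003% and between -0.00 and 0.16 at 0.009%. With spike-in scaling the median of the 3 at 0.009% was -1.17, so how near they were to the control depends on the scaling.

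Among the dyneins, which walk to the minus end, Dync1i1, Dync2i2 and Dync2h1 were at least 2-fold lower at 0.003%. Dync1i1, a cytoplasmic dynein intermediate chain of neurons, had levels of 5.17, 1.97, 2.76 and 4.09. It was 2.62-fold lower at 0.003% (-1.39 ± 0.20) and then nearer to the control at -0.90 and -0.34. Dync2i2, an intermediate chain of the dynein of cilia, had levels of 3.26, 1.56, 2.48 and 3.99. It was 2.09-fold lower at 0.003% (-1.06) and at 0.29 at 0.009%, a sign that turned when arrays were scaled to their median or to the spike-ins. Dync2h1, the heavy chain of that ciliary dynein, was well above background only in the control (0.122) and at least 2.07-fold lower at 0.003%. The cytoplasmic heavy chain Dync1h1 was at 0.07, -0.08 and -0.43. The light chain Dynll1 was at 0.33, 0.29 and 0.33, and the other light chains Dynll2, Dynlrb1, Dynlt1 and Dynlt3 lay between -0.18 and 0.38 by their brightest probes. Dync1i2, the ubiquitous intermediate chain, was at -0.12, -0.07 and 0.61, the last of which was -0.58 with spike-in scaling. Its other probe, above background on all 4 arrays, gave 0.02, -0.21 and -0.50, so the sign at 0.009% rests on the probe taken. Dync1li1, a light intermediate chain, was well above background only at 0.003% and 0.006%, with levels of 0.0821 and 0.0809. Dync1li2, its paralog, was at -0.37, -0.44 and -0.54 by its brightest probe and at 1.09, 0.64 and 0.30 by the other.

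The tropomyosins Tpm1 and Tpm2 and vimentin had their lowest levels at 0.003% and were nearer to the control at the higher doses. Tpm1, which stabilises actin filaments, had levels of 87.7, 49.5, 66.4 and 91.0. The difference was -0.83 at 0.003% and 0.05 at 0.009%, and the level at 0.009% was 0.88 above that at 0.003% on the log2 scale (-0.12 with spike-in scaling). Its 4 probes gave between -0.98 and -0.53 at 0.003%. Tpm2 had levels of 219, 158, 172 and 216, and by their brightest probes Tpm3 was at 0.19, 0.01 and -0.06 and Tpm4 at -0.07, 0.22 and 0.20. The probes of Tpm3 disagreed at 0.009%, where a dim one above background on all arrays gave 0.63, the dimmest a bound of 1.41 and the mean over probes 0.35. Vim, the intermediate filament protein of mesenchymal and cultured cells, had levels of 42.3, 28.4, 32.2 and 37.4. The return toward the control depends on the scaling. With array median scaling Vim was at -0.72, -0.70 and -0.74 and Tpm2 at -0.62, -0.66 and -0.58, while Tpm1 was at -0.97, -0.71 and -0.51. With spike-in scaling Vim was at -0.76, -0.95 and -1.36 and Tpm2 at -0.66, -0.90 and -1.20, further from the control at each dose.

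Of 59 members well above background on all arrays, 19 had their lowest level at 0.003% (32.2%), against 31.8% of 4987 named genes, and 16 had their highest there (27.1%), against 30.6%. The shares with this shape were thus close to those of all named genes. Levels were higher at each successive dose in 5 members (8.47%, against 9.24%), Actn3, Dynlrb1, Myl11, Tuba3a and Tuba4a, and lower at each in 1, Dync1li2 (1.69%, against 5.94%). With spike-in scaling none of these 5 rose at each dose. Actn3 and Myl11 instead fell from 0.003% to 0.009%. Dynlrb1 and Tuba3a, whose rises over that range were 0.30 and 0.28, fell too, since the spike-in shift there is larger. Tuba4a was lower at 0.009% (1.85) than at 0.006% (2.17). Of 4 fibroblast markers with a probe, Thy1 and Dcn were not well above background on any array. Col1a2 (levels of 2.28, 0.585, 0.896 and 1.6) and Pdgfrb (3.43, 0.763, 1.07 and 1.82) were above background and also lowest at 0.003%. Their part in the pattern of Vim, Tpm1 and Tpm2 was not tested.

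**Figure D4:**
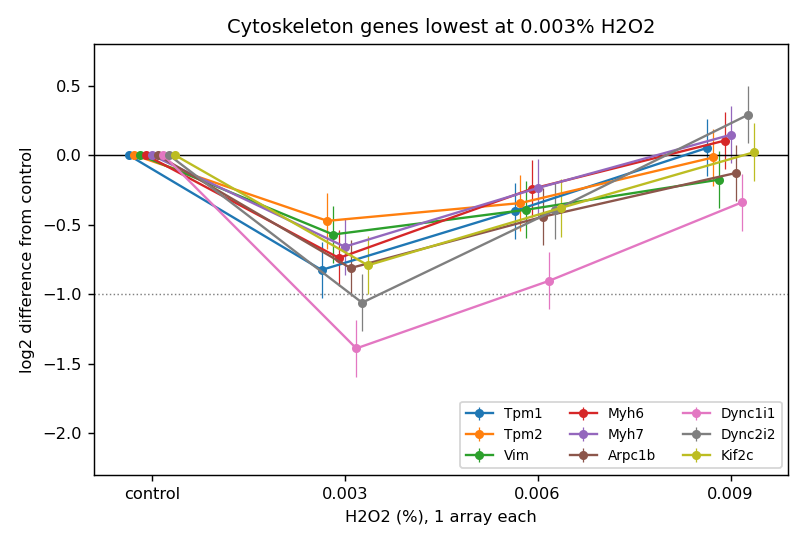
Log2 difference from the control, with the spot error as bars, for 9 cytoskeleton genes that were lowest at 0.003% H2O2, by dose in percent, 1 array each; the genes were picked for this shape. Dync1i1 is lowest at -1.39 and all 9 are nearer to 0 at 0.009%, between -0.34 and 0.29. The return depends on the scaling. With spike-in scaling Tpm1, Tpm2, Vim, Myh6, Arpc1b and Kif2c were further from 0 at 0.009% than at 0.003%. Vim was then at -0.76 at 0.003% and -1.36 at 0.009%. Dync1i1 (-1.58 and -1.53) and Dync2i2 (-1.25 and -0.90) were not further from 0.

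Between the ends of the treated range, 0.009% against 0.003%, 4 of 65 members were at least 2-fold higher (6.15%, against 8.86% of all named genes) and 1 was lower (1.54%, against 5.56%). Counted in either direction these were 5 of 65 members, and 14.4% of all named genes were 2-fold or more apart. The higher ones were Dync2i2 at 1.35, Tuba4a at 1.18, Dync1i1 at 1.05 and Tuba8, at least 2.87-fold higher, and the lower one was Myo1d. The median difference was 0.17 in the members and 0.12 in all named genes, and -0.29 in the members with array median scaling. None of these 5 was 2-fold in every alternative.

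**Figure D5:**
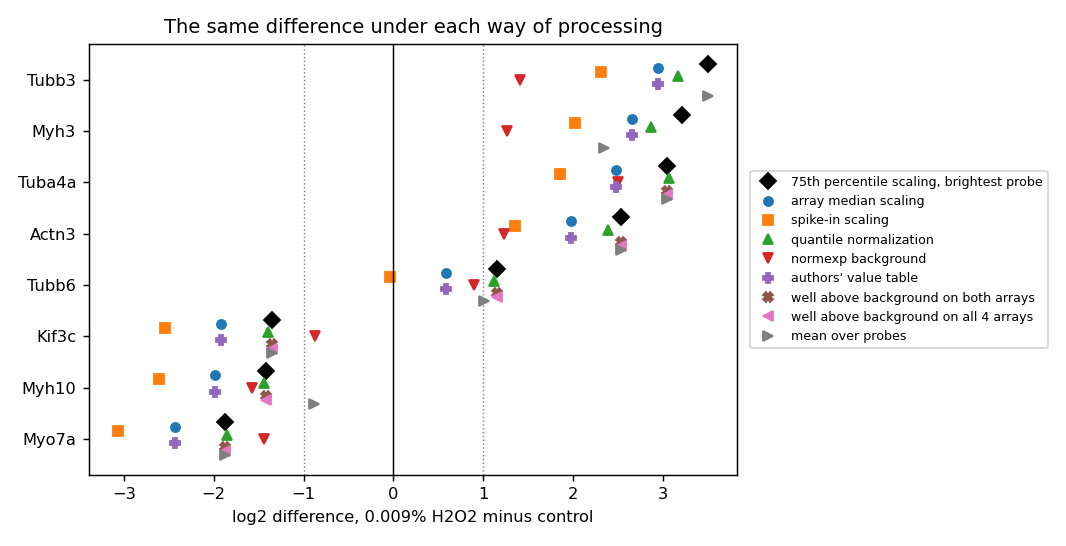
Log2 difference at 0.009% H2O2 from the control for the genes at least 2-fold from it at all 3 doses, 1 symbol for each way of processing; dotted lines mark 2-fold. Tuba4a and Myo7a stay outside the dotted lines in every setting, and Tubb6 spans from -0.04 (spike-in scaling) to 1.15.

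Of the members at least 2-fold from the control, 5 of 12 at 0.003%, 5 of 13 at 0.006% and 5 of 11 at 0.009% were so in every alternative that gave a value. These were Dync1i1, Myh10, Myo7a, Tuba4a and Tubb6 at 0.003%, Myh10, Myo5a, Myo7a, Tuba4a and Tubb3 at 0.006%, and Actn3, Myh3, Myo7a, Tuba4a and Tubb3 at 0.009%. Myo7a and Tuba4a were on all 3 lists. Not every alternative could change a value. The stricter filters drop genes but leave values as they are, and the mean over probes acts only on genes with several probes. The authors' table is close to array median scaling.

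Other genes of the same systems were counted from lists. Of the 7 genes of the chaperonin that folds actin and tubulin and its helper prefoldin, 4, 3 and 1 were at least 2-fold higher at the 3 doses and none was lower, with medians of 1.05, 0.97 and 0.65 against 0.02, -0.03 and 0.06 for all named genes. The shares of all named genes at least 2-fold higher were 16.1, 14.8 and 13.8%, and those lower 12.0, 8.03 and 5.14%. Tcp1, a chaperonin subunit, had levels of 15.7, 44.3, 46.6 and 40.3, and Cct4, another, 7.68, 17.5, 17.3 and 13.1. With spike-in scaling the differences of all genes are 1.19 smaller at 0.009%, which would make the median there negative.

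The counts of the lists that follow stand beside 16.1, 14.8 and 13.8% of all named genes at least 2-fold higher at the 3 doses and 12.0, 8.03 and 5.14% lower. Of microtubule-associated genes, 4 of 15, 4 of 15 and 2 of 16 were higher and 3, 3 and 2 lower. Mapre1, which tracks growing plus ends, had levels of 0.967, 2.93, 3.01 and 2.37, and Pafah1b1, the dynein regulator LIS1, 23.7, 74.5, 63.4 and 48.5. Within dynactin, the activator of dynein, subunits parted: Dctn1, which grips the microtubule, had levels of 6.98, 2.80, 2.74 and 3.13, and Dctn4 3.79, 12.5, 7.94 and 4.70. Clip1, another plus-end protein, had 1.95, 0.795, 0.726 and 0.836.

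Of other actin-binding proteins 1 of 16, 0 of 16 and 0 of 17 were higher and 1, 1 and 0 lower. The lower one was Gsn, gelsolin, which severs filaments, with levels of 129, 48.2, 62.0 and 85.0. Of 8 targets of serum response factor 4 were higher and 1 lower at each dose, with median differences of 0.61, 0.92 and 1.04. The higher ones were the early response factors Egr1 and Fos, the matricellular protein Ccn1 and Fhl2, a focal adhesion protein, with levels of 0.397, 0.892, 1.23 and 1.11. The lower one was Ccn2, another matricellular protein, with levels of 196, 48.0, 63.9 and 87.0. Of 7 other intermediate filament genes 2, 2 and 3 were higher and none was lower, and Krt18, the partner of Krt8, had levels of 0.0646, 0.300, 0.436 and 0.552, opposite in direction to Krt8.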

How the data were processed

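Per the labels, each of the 4 samples is total RNA of 1 NRK-52E culture, labelled with Cy3 and hybridised to 1 array. Per the file headers and the submitters' processing notes, images were quantified by the scanner software Agilent Feature Extraction, version 10.7.3.1, with annotation on rn4. Per the file headers, the signal is a linear intensity after background subtraction, with no scaling between arrays, and its error is in the same intensity unit. The authors' deposited values are linear ratios, equal for 100% of probes to the signal over the array median, within 1e-06.

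Spots flagged as outliers were left out. A probe's level is its mean log2 intensity over spots minus log2 of that array's 75th percentile. Of 41012 probes 41007 were used, and 10834 were named by matching RefSeq accessions to a gene table of assembly GRCr8, which gave names only. No positions of array probes are given. Each gene is represented by the brightest of its probes that passed background. A dim side was raised, where lower, to the lowest signal well above background on its array, which makes the difference a bound. Spot errors were propagated over the spots of both arrays. The 2-fold threshold sorts by size and tests nothing. Among 140 probes with 8 or more spots, the standard deviation over spots had a median of 0.07 on the log2 scale. The depth of an array is unknown, and precision is limited by the number of arrays.

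The members, gene lists and naming rule were chosen with earlier results of these data known. Named with values are the 3 members of each subfamily furthest from the control at 0.009% and at 0.003%, those 2-fold in 1 direction at all doses, and Actb, Vim, Cfl1, Myh9, Tpm1 and Tubb5. Other members given to complete a subfamily, and all promoter motifs except the CArG box, were chosen after their values were seen. Some values of members and of the lists are not reported here. Alternatives were array median, spike-in (8 probes) and quantile scaling, normexp with an offset of 50 (limma 3.58.1, R 4.3.3), the authors' table, 2 stricter filters and the mean over probes. Normexp was planned on mean signals and used median signals, the column at hand. The calculation was tested on simulated data.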

Additional observations from a re-analysis of the deposited data

How the results depend on the processing

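No paired analysis was possible because each dose has 1 array, and no replicate could be left out. At 0.003%, the count of members at least 2-fold higher was 2 with normexp and 3 with either stricter filter, and the count lower was 3 with normexp. At 0.006%, it was 4 higher with spike-in scaling and 3 with normexp, and 11 lower with array median scaling or the authors' table, 17 with spike-in scaling and 3 with normexp. The median there was -0.36 with array median scaling and the authors' table and -0.61 with spike-in scaling. At 0.009%, 4 were higher with spike-in scaling, normexp or either filter, and 15 were lower with array median scaling or the authors' table, 39 with spike-in scaling and 7 with quantile normalization. The median there was -0.50 with array median scaling and the authors' table and -1.13 with spike-in scaling. For 0.009% against 0.003%, 1 was higher with array median scaling or the authors' table, 0 with spike-in scaling and 0 with normexp, and 3 were lower with array median scaling or the authors' table and 24 with spike-in scaling. The median was -0.29 with the first pair and -0.90 with spike-in scaling. These shifts follow from the scalings' own offsets, given above, and from normexp's offset, which shrinks dim signals. Tubb6 at 0.009% turned to -0.041 with spike-in scaling. For the members named, 886 values moved by less than the spot error and 522 by more, sign changes of differences under 2-fold among them, and 1 difference of at least 2-fold changed sign. Of the 886, 164 and 167 came from the stricter filters, which cannot change a value. Another 159 came from the mean over probes, which leaves genes with 1 probe unchanged. Array median scaling moved 135 values by more and 45 by less, as did the authors' table, which is close to it. Spike-in scaling moved 133 by more and 45 by less, normexp 58 and 121, and quantile normalization 40 and 140. Genes with several measured probes (17, 16 and 17 at the 3 doses) had a median range between probes of 0.26, 0.15 and 0.23, over 0.5 in 5, 4 and 6 of them. Signals close to background limit Tubb3, Myh3, Tuba8, Myo1d and Dync2h1.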

Other observations

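Markers of cells other than epithelium were also read. The endothelial receptor Kdr had a level of 0.107 in the control and 0.202, 0.246 and 0.322 over the 3 doses, while Pecam1 was not well above background on any array. Cd68, a lysosomal protein abundant in macrophages, had levels of 2.23, 2.71, 3.87 and 4.12, while the macrophage receptor Adgre1 had 0.135, 0.206, 0.0385 and 0.108 and Csf1r was well above background on 1 array. The smooth muscle gene Tagln, an actin-binding protein, had levels of 3.07, 2.41, 3.54 and 4.63, and Cnn1 was not well above background on any array. Desmin (Des), the intermediate filament protein of muscle, had levels of 0.510, 1.12, 0.672 and 0.615, with its highest value at 0.003%. Aqp1, the water channel of the proximal tubule, had levels of 1.94, 0.450, 0.539 and 0.772. Among genes for small actin-binding proteins, Tmsb10, a thymosin that binds actin monomers, had levels of 139, 124, 158 and 219, and Twf1, twinfilin, 5.45, 11.0, 9.07 and 6.30.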
